A study of Homo sapiens with 6 samples.

Results

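The genes described here are the 3 D-type cyclin genes CCND1, CCND2 and CCND3, their kinase partners CDK4 and CDK6, the 4 INK4 inhibitor genes CDKN2A, CDKN2B, CDKN2C and CDKN2D, and CDKN1B. They were chosen by symbol, and all 10 symbols were found, each in 1 row, among the 60605 genes of the table. Their poly(A) RNA was measured in SW620, an established human colorectal cancer line from a lymph node metastasis, in 3 libraries of cells with a lentiviral ELAPOR1 construct (pLVX-IRES-Puro-ELAPOR1) and 3 of cells with the empty vector. Both groups were infected at a multiplicity of 20 and selected with 2 ug/ml puromycin, were grown with 10% serum, and received no other treatment. The samples are numbered 1 to 3 in each group and nothing says whether they came from separate infections. The p-values therefore speak to variation among these 6 libraries alone, and it may be technical. Levels in such bulk samples cannot tell fewer expressing cells from less RNA per cell.

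D-type cyclins are the regulatory subunits that switch on CDK4 and CDK6 in G1 phase. The active kinases phosphorylate the RB protein, which then releases E2F factors to transcribe genes of DNA replication. INK4 proteins bind CDK4 and CDK6 and keep D cyclins off them, while p27, the product of CDKN1B, belongs to the Cip/Kip family and inhibits mainly cyclin E and cyclin A complexes of CDK2. In intestinal epithelium CCND1 is a textbook gene of the Wnt and growth factor pathways.

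The libraries held between 16401813 and 20571924 counts. ELAPOR1 itself stood at 10.4 ± 1.47 CPM (counts scaled to library size) in vector cells and 21126 ± 362 CPM in cells with the construct (SD, n = 3), and was high in each of the 3 libraries labelled ELAPOR1. All 9 colonic epithelial markers had counts in every library. Their summed level was 2011 to 2103 FPKM in vector and 1831 to 1857 FPKM in ELAPOR1 libraries. FPKM are counts scaled to exon length and library total, without TMM factors. Of these 9 markers 6 passed an adjusted p of 0.05 by edgeR (66.7%, against 21.4% of all tested genes). The intestinal cadherin CDH17 rose by 1.05 on the log2 scale. E-cadherin (CDH1, -0.76), the keratins KRT8 (-0.14), KRT19 (-0.45) and KRT20 (-1.67, at 4 to 50 counts) and the transcription factor CDX2 (-0.56) fell. EPCAM (-0.02), KRT18 (-0.03) and VIL1 (-0.05) did not pass. Of 10 immune, stromal and endothelial markers 7 were tested and 0 passed, with 0 at an unadjusted p under 0.05 by edgeR and 0 by DESeq2. Their summed level was 3.56 to 5.02 FPKM in vector and 4.68 to 4.96 FPKM in ELAPOR1 libraries. The fibroblast genes COL1A2 and DCN had at most 1 and 2 counts in any library. Other genes of the list had counts in every library, LYZ 87 to 138, COL1A1 42 to 52 and PDGFRB 9 to 27. What these marker shifts contribute to the results was not tested.

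Of the 10 genes, 9 had enough counts to be tested and 4 passed an adjusted p of 0.05 (edgeR quasi-likelihood test, two-sided, Benjamini-Hochberg over all tested genes). CCND3 and CDK6 rose, and CDKN2B and CDKN2D fell. Across the transcriptome 21.4% of 16003 tested genes passed, 10.0% higher and 11.4% lower (1607 and 1820 genes). With limma on log2(FPKM + 1) the split over all genes was 727 higher and 1406 lower, and with log2(FPKM + 0.1) it was 713 and 1385. The most abundant genes of each class, CCND1, CDK4 and CDKN2A, did not pass. The median log2 fold change of the 9 genes was -0.0031, against 0.0041 for all tested genes. In the authors' deposited table, where 19.1% of genes with an adjusted p passed 0.05, CCND3, CDKN2B and CDKN2D passed and CDK6 did not, at an adjusted p of 0.0582.

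**Figure D1:**
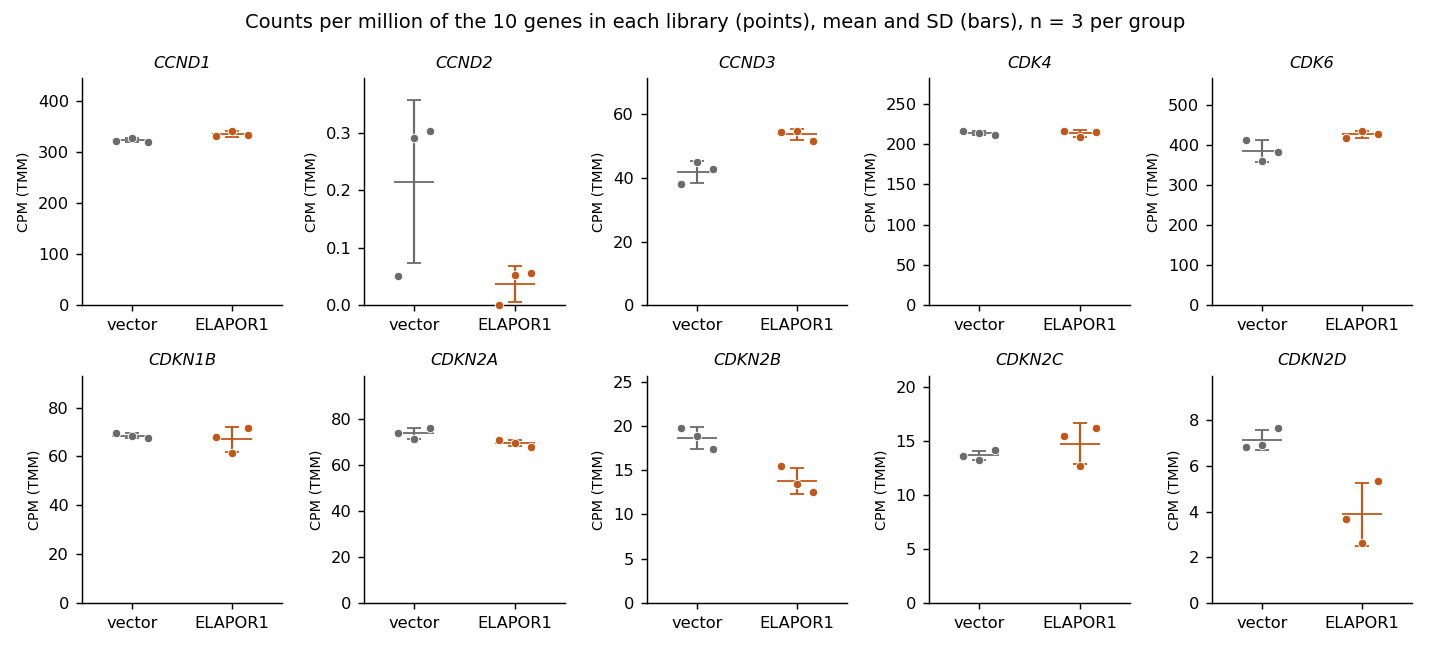
CPM (TMM-scaled, y axis from 0, scale differing between panels) of the 10 genes in the 3 vector and 3 ELAPOR1 libraries; points are libraries and bars the mean and SD. CCND3 and CDK6 sit higher and CDKN2B and CDKN2D lower in all 3 ELAPOR1 libraries than in any vector library, while CDK4 overlaps between groups.

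The promoters of CDKN2D and CDKN2B are shown because these INK4 genes both fell and lie on different chromosomes. A CDK6 window is shown as an example from a gene that rose. CCND3, which rose more, is not shown. The sequences are RefSeq's (GRCh38.p14) and run 5′ to 3′ on the gene's strand, from 250 bases before the RefSeq start site to the first base that any GENCODE 29 exon covers. Capitals mark exact matches to the GC box GGGCGG on either strand.
CDKN2D, chr19:10569060-10569229, minus strand: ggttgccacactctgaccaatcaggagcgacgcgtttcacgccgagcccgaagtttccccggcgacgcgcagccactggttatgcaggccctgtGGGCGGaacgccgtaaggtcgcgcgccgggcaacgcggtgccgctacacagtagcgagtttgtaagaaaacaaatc
CDKN2B, chr9:22009364-22009555, minus strand: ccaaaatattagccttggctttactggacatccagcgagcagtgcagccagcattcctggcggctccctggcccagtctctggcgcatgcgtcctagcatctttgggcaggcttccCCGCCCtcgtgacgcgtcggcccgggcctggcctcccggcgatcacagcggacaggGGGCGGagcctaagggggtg
CDK6, chr7:92836595-92836823, minus strand: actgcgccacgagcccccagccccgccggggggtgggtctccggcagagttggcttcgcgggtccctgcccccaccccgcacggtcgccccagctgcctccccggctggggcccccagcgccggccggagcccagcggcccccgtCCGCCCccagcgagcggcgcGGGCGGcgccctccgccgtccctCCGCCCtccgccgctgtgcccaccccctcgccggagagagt

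The stretches of CDKN2D and CDKN2B held 1 and 2 GC boxes at 62.4% and 66.1% G and C, and that of CDK6 held 3 at 82.1%. These stretches differ in length. Over the full 250 bases CDKN2D held 2 GC boxes at 67.6%, CDKN2B 2 at 66.4% and this CDK6 window 3 at 80%. A second RefSeq window of CDK6, not shown, held 0 GC boxes at 67.6%. The CCND3 windows, not shown, held 5, 2 and 0 GC boxes over the full 250 bases. Over the full 250 bases a GC box was found in 42.6% of the 35116 windows of the RefSeq table, so its presence is common. Windows were found for 8 of the 10 genes, 14 in all. An E-box, CACGTG, which MYC and MAX bind, was found in 6.34% of all windows and, among these genes, in the CDK4 window, which held 3, and in 2 of the 3 CDKN2C windows. None of the 14 windows held the E2F words TTTGGCGC or TTTCCCGC (1.93% of all windows), the AP-1 word TGANTCA (6.57%), the TCF/LEF words CTTTGAT or CTTTGTT (6.60%), the CRE word TGACGTCA (1.65%) or the FOXO word GTAAACA (2.98%). Both strands were read, and overlapping matches were counted.

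Cyclin D1 made up most of the D cyclin RNA. Per length, CCND1 stood at 68.08, 69.03 and 67.59 FPKM in vector libraries 1 to 3 and at 68.55, 71.28 and 69.42 FPKM in ELAPOR1 libraries 1 to 3. These ranges overlap. On TMM-scaled counts its means were 323 ± 3.88 CPM and 335 ± 5.75 CPM (SD, n = 3), and the groups did not overlap. The log2 fold change was 0.05 (95% interval -0.01 to 0.12; adjusted p 0.253, edgeR). CCND1 (ENSG00000110092, GRCh38 chromosome 11, 69641156 to 69654474, plus strand) overlaps LTO1 on the other strand, which had 5200 counts in all and a log2 fold change of 0.04.

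Cyclin D3 rose. CCND3 (ENSG00000112576, chromosome 6, 41934934 to 42050357, minus strand) had 38.2, 44.9 and 42.7 CPM in vector libraries 1 to 3 and 54.5, 54.8 and 51.6 CPM in ELAPOR1 libraries 1 to 3. All 3 ELAPOR1 libraries lay above the highest vector library. The fold change was 1.28, a log2 fold change of 0.35 ± 0.0642 (SE; adjusted p 1.13e-05, edgeR). Per length, the mean was 7.32 ± 0.58 FPKM in vector and 9.22 ± 0.302 FPKM in ELAPOR1 cells. The share of CCND3 in the summed FPKM of the D cyclins was 8.95%, 10.2% and 9.92% in the vector libraries and 12.0%, 11.7% and 11.3% in the ELAPOR1 libraries, so cyclin D1 went from 90.3% ± 0.674 to 88.3% ± 0.321 of the class. TAF8, which encodes a subunit of the TFIID complex and starts 156 bases from CCND3 on the other strand, changed by 0.21 on the log2 scale (adjusted p 0.0395, edgeR). That call was lost under 11 of 16 alternatives, DESeq2 (0.157) and the replicate block (0.0557) among them, and without vector replicate 2 or 3 or ELAPOR1 replicate 2 or 3 at up to 0.243. On the other side, the ribosome assembly gene BYSL had 0.14 (adjusted p 0.124).

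Cyclin D2 was barely detected. CCND2 had 1, 6 and 5 counts in vector libraries 1 to 3 and 0, 1 and 1 counts in ELAPOR1 libraries 1 to 3. It reached at most 0.04 FPKM and did not pass the filter on low counts, so no fold change is given. The authors' deposited table gives CCND2 an unadjusted p of 0.117 and no adjusted p. Whether the groups differ was not settled at these counts.

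Of the kinases, CDK4 was per length about as abundant as CCND1. CDK4 (ENSG00000135446, chromosome 12, 57747727 to 57756013, minus strand) had 216, 214 and 212 CPM in vector libraries 1 to 3 and 216, 208 and 215 CPM in ELAPOR1 libraries 1 to 3. The ranges overlap, and the log2 fold change was -0.0031 (95% interval -0.07 to 0.07; adjusted p 0.970, edgeR). The interval corresponds to a change between -4.98% and 4.80%. CDK4 overlaps TSPAN31 and MARCHF9 on the other strand, with 1849 and 1306 counts in all against 3489 to 4410 per library for CDK4. TSPAN31, a tetraspanin gene, fell by 0.29 on the log2 scale (adjusted p 0.0296, edgeR). That call was lost under DESeq2 (0.103) and without vector replicate 1 or 2 or ELAPOR1 replicate 1 or 2, at up to 0.123. MARCHF9 had -0.20 (adjusted p 0.258).

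CDK6 was higher in ELAPOR1 cells by a small margin. CDK6 (ENSG00000105810, chromosome 7, 92604921 to 92836573, minus strand) had 412, 359 and 382 CPM in vector libraries 1 to 3 and 416, 435 and 427 CPM in ELAPOR1 libraries 1 to 3. Vector library 1 lay just below the lowest ELAPOR1 library, and on FPKM the groups overlapped, with 33.95 in vector library 1 and 33.62 in ELAPOR1 library 1. The fold change was 1.11, a log2 fold change of 0.15 ± 0.0336 (SE; adjusted p 0.000421, edgeR). By limma the adjusted p was 0.160 on log2(FPKM + 1) and 0.162 on log2(FPKM + 0.1), without a call. By DESeq2 with a local dispersion trend it was 0.0582, again without a call. That is the value in the authors' deposited table, so these are not separate results. The ratio of CDK4 to CDK6 on FPKM was 2.21 ± 0.14 in vector and 1.98 ± 0.0801 in ELAPOR1 libraries (SD, n = 3). The groups were narrowly apart, with 2.07 in vector library 1 and 2.05 in ELAPOR1 library 1. Of the nearest protein-coding genes, SAMD9, an interferon-responsive gene 262940 bases away, rose by 0.48 on the log2 scale (adjusted p 2.54e-05, edgeR), and FAM133B had 0.16 (adjusted p 0.188).

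**Figure D2:**
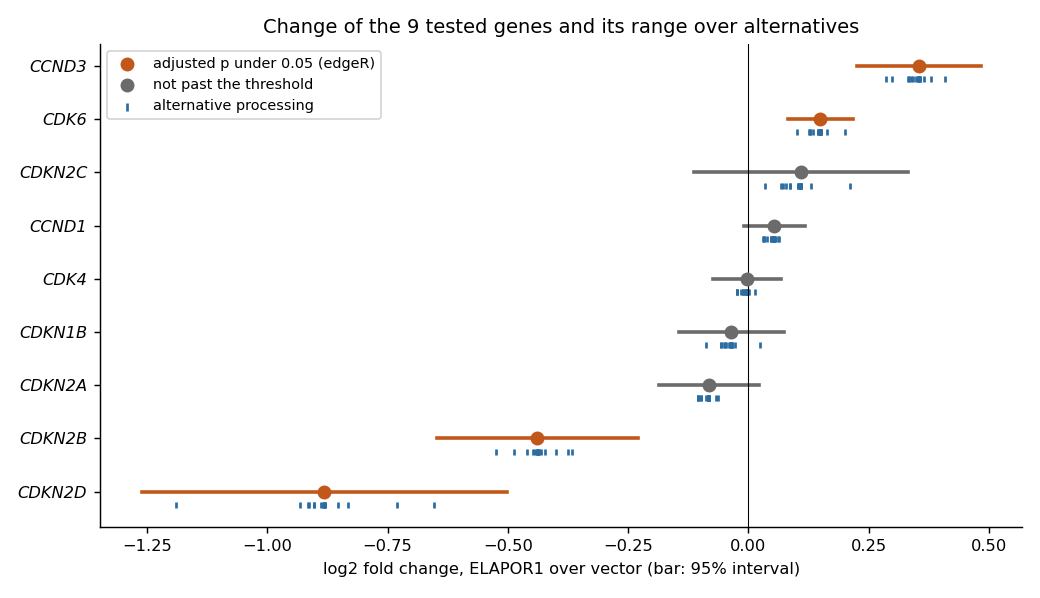
Log2 fold change of ELAPOR1 over vector (x axis) for the 9 tested genes, with 95% intervals from edgeR as bars and the values under each alternative processing as ticks. CDKN2D at -0.88 and CDKN2B at -0.44 lie below 0 and CCND3 at 0.35 above it under every alternative shown, and the interval of CDK4 spans 0. CDK6 also kept its sign, as did CCND1, CDKN2A and CDKN2C, which were not called.

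CDKN2D, which encodes p19, fell. CDKN2D (ENSG00000129355, chromosome 19, 10566460 to 10569059, minus strand) had 134, 143 and 126 counts in vector libraries 1 to 3 and 60, 50 and 95 counts in ELAPOR1 libraries 1 to 3. Scaled, these were 6.85, 6.92 and 7.64 CPM against 3.69, 2.61 and 5.33 CPM. The ELAPOR1 libraries were all lower than the vector libraries but spread more widely, with library 3 nearest to the vector group. The level was 1.84-fold lower, a log2 fold change of -0.88 ± 0.19 (SE; adjusted p 0.000228, edgeR). Its absolute change was larger than that of 95.7% of tested genes. That rank takes in genes of all levels, and CDKN2D was at percentile 32.2 of mean CPM. Without ELAPOR1 replicate 2 the log2 fold change was -0.65, and without ELAPOR1 replicate 3 it was -1.19.

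CDKN2D lies between KRI1, a ribosome biogenesis gene 429 bases beyond its 3′ end, and AP1M2, an epithelial clathrin adaptor subunit gene whose 3′ end is 3612 bases before the start of CDKN2D. All 3 are on the minus strand. AP1M2 had 10, 3 and 4 counts in vector libraries 1 to 3 and 54, 64 and 68 counts in ELAPOR1 libraries 1 to 3, so the upstream neighbour rose in the libraries in which CDKN2D was lower. Its log2 fold change was 3.51 ± 0.403 (SE; adjusted p 6.59e-11, edgeR). By limma on log2(FPKM + 1), where the pseudocount is large beside such low levels, it was 1.17 (adjusted p 0.0011), and over all alternatives it ranged from 1.17 to 4.16. KRI1 had 37.6 ± 1.1 CPM in vector and 39.1 ± 1.89 CPM in ELAPOR1 cells (log2 fold change 0.06, adjusted p 0.65). Whether the changes of CDKN2D and AP1M2 are related was not tested.

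CDKN2B, which encodes p15, also fell. CDKN2B (ENSG00000147883, chromosome 9, 22002903 to 22009305, minus strand) had 19.7, 18.9 and 17.3 CPM in vector libraries 1 to 3 and 15.4, 13.5 and 12.5 CPM in ELAPOR1 libraries 1 to 3. The groups did not overlap. The level was 1.36-fold lower, a log2 fold change of -0.44 ± 0.105 (SE; adjusted p 0.00096, edgeR). CDKN2B lies 7602 bases from CDKN2A, and the long noncoding RNA gene CDKN2B-AS1 overlaps both on the other strand. CDKN2B-AS1 had 9.95 ± 1.76 CPM in vector and 9.54 ± 0.805 CPM in ELAPOR1 cells (log2 fold change -0.05, adjusted p 0.843). No source used here gives the strand setting of the counting. Reads of genes that overlap on opposite strands, CDKN2B and CDKN2B-AS1 first among them, may therefore not be separable.

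CDKN2A, the neighbour of CDKN2B, encodes p16 and, from another promoter and reading frame, ARF, which counts per gene do not separate. CDKN2A (ENSG00000147889, chromosome 9, 21967752 to 21995301, minus strand) had 73.9, 71.6 and 76.0 CPM in vector libraries 1 to 3 and 71.1, 69.8 and 68.1 CPM in ELAPOR1 libraries 1 to 3. The ELAPOR1 libraries lay just below the vector libraries, with 71.1 CPM against a lowest vector value of 71.6 CPM. The log2 fold change was -0.08 (95% interval -0.19 to 0.02; adjusted p 0.284, edgeR). Whether CDKN2A and CDKN2B differed in their response was not tested. On FPKM their ratio was 3.86, 3.90 and 4.51 in the vector libraries and 4.75, 5.33 and 5.61 in the ELAPOR1 libraries.

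**Figure D3:**
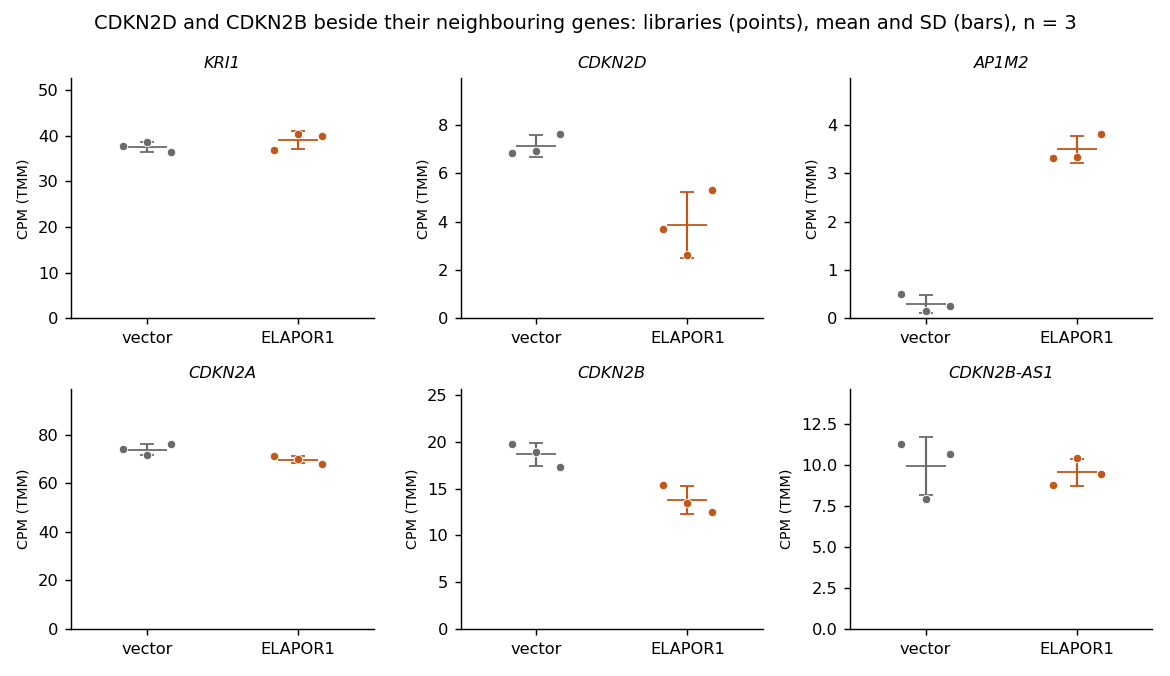
CPM (TMM-scaled, y axis from 0, scale differing between panels) of CDKN2D with its neighbours KRI1 and AP1M2, and of CDKN2B with CDKN2A and CDKN2B-AS1; points are libraries and bars the mean and SD. AP1M2 went from 0.3 to 3.49 CPM while CDKN2D went from 7.14 to 3.88 CPM, and CDKN2B was lower in all 3 ELAPOR1 libraries.

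CDKN2C, which encodes p18, had 13.6, 13.3 and 14.1 CPM in vector libraries 1 to 3 and 15.5, 12.6 and 16.2 CPM in ELAPOR1 libraries 1 to 3. ELAPOR1 library 2 was the lowest of all 6 and library 3 the highest. The log2 fold change was 0.11 (95% interval -0.11 to 0.33; adjusted p 0.562, edgeR). It was 0.21 without ELAPOR1 replicate 2 and 0.04 without ELAPOR1 replicate 3, with no call in either case. CDKN1B, which encodes p27, had 69.5, 68.5 and 67.6 CPM in vector libraries 1 to 3 and 67.9, 61.4 and 71.4 CPM in ELAPOR1 libraries 1 to 3. Its groups overlap, and the difference was -0.04 on the log2 scale (95% interval -0.15 to 0.07; adjusted p 0.724, edgeR). The intervals leave room for a rise of CDKN2C of up to 25.8% and a change of CDKN1B between -9.57% and 5.23%. CDKN1B overlaps GPR19 on the other strand, which had 157 counts in all.

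In all, the groups did not overlap in CPM for 6 of the 9 tested genes, against 33.8% of all tested genes (16.4% higher and 17.4% lower). CCND1, CCND3 and CDK6 were higher and CDKN2A, CDKN2B and CDKN2D lower.

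Levels of different genes are compared per length, with the authors' exonic lengths, which reach 12239 bases for CDK6 and 9255 bases for CDKN1B, so a gene with many annotated exons reads lower. In vector cells the order was CDK4 at 69.5 ± 0.814 FPKM, CCND1 at 68.2 ± 0.732, CDK6 at 31.6 ± 2.25, CDKN2A at 19.1 ± 0.589, CDKN1B at 7.45 ± 0.116, CCND3 at 7.32 ± 0.58, CDKN2D at 4.77 ± 0.286, CDKN2B at 4.69 ± 0.308, CDKN2C at 4.56 ± 0.15 and CCND2 at 0.03 ± 0.0173 FPKM (SD, n = 3). CDK4 and CCND1 overlapped over the libraries, as did CDKN1B and CCND3, and as did CDKN2D, CDKN2B and CDKN2C. In ELAPOR1 cells CCND3 stood above CDKN1B in every library, at 8.88 to 9.45 FPKM against 6.59 to 7.65 FPKM. CDKN2C, at 4.16 to 5.31 FPKM, stood above CDKN2B, at 3.10 to 3.81 FPKM, and CDKN2D, at 1.72 to 3.51 FPKM, which overlapped each other.

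As a class, the INK4 inhibitors summed to 33.31, 32.26 and 33.83 FPKM in vector libraries 1 to 3 and to 29.38, 27.09 and 29.3 FPKM in ELAPOR1 libraries 1 to 3. The sum was lower in all 3 ELAPOR1 libraries. The share of CDKN2D in it was 14.4% ± 0.651 in vector and 8.86% ± 2.87 in ELAPOR1 cells, and that of CDKN2A was 57.7% ± 0.404 and 62.3% ± 3.36 (SD, n = 3). The D cyclins summed to 74.78 to 76.9 FPKM in vector and 77.89 to 80.74 FPKM in ELAPOR1 libraries, and CDK4 with CDK6 to 98.75 to 104.3 and 102.2 to 103.54 FPKM. The kinase sums therefore overlap, while the sums of D cyclins and of INK4 inhibitors do not. These sums are descriptions, with no test, on FPKM without TMM factors. They include genes that did not pass. CCND1 had means of 68.23 FPKM in vector and 69.75 FPKM in ELAPOR1 cells, and CDKN2A of 19.11 and 17.77 FPKM.

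**Figure D4:**
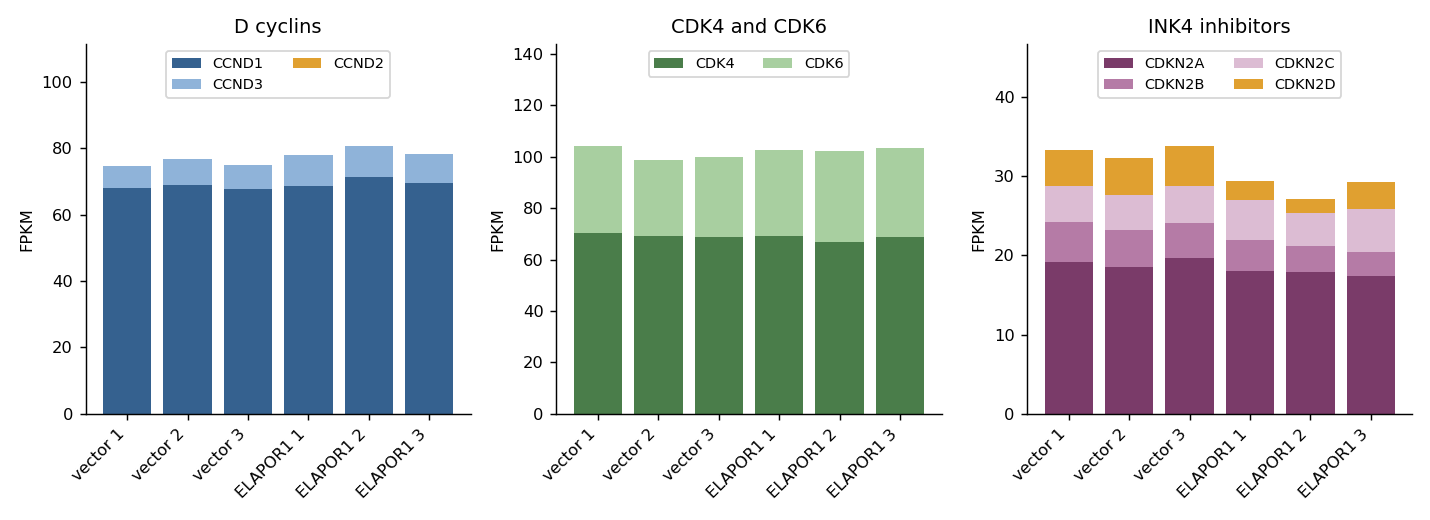
Stacked FPKM (y axis) of the D cyclins, of CDK4 and CDK6 and of the INK4 inhibitors in each of the 6 libraries (x axis). The INK4 total is 32.26 to 33.83 FPKM in the vector libraries and 27.09 to 29.38 FPKM in the ELAPOR1 libraries, with the thinnest CDKN2D segments in the ELAPOR1 libraries.

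CCND3 had the smallest p of the 10 genes, and over the 6 libraries 9698 other genes of at least 10 CPM were compared with it. The log2 CPM of PLBD1 correlated most closely with CCND3 (Pearson's r = 0.9965), followed by PFN1, which encodes the actin-binding protein profilin (r = 0.9959), and PABPC1, the poly(A)-binding protein gene (r = 0.9957). PLBD1 had a log2 fold change of 0.43 (adjusted p 0.00145), PFN1 of 0.13 (adjusted p 0.000176) and PABPC1 of 0.03 (adjusted p 0.434, edgeR). The 6 points share their libraries and fall in 2 groups, so these values are a description.

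The rest of the G1 pathway was read from 8 lists by role, with 114 distinct genes tested, some in more than 1 list. Of 19 RB family, E2F and DREAM genes 5 rose and 1 fell, with a median log2 fold change of 0.05. That is 31.6% called, against 21.4% of all tested genes (10.0% higher and 11.4% lower). RB1, the main substrate of CDK4 and CDK6, had 124 ± 5.51 CPM in vector and 125 ± 2.59 CPM in ELAPOR1 cells (adjusted p 0.926). E2F1, an activating E2F, rose from 31.1 ± 2.9 to 39.8 ± 4.9 CPM, TFDP2, a dimer partner of E2F factors, from 41.7 ± 1.08 to 52.8 ± 2.03 CPM, and E2F7, a repressing E2F, from 32.5 ± 2.02 to 37.9 ± 2.39 CPM. By limma on FPKM E2F1 was not called (adjusted p 0.0749 and 0.0756), nor was E2F7 (0.122 and 0.120). E2F7 also lost its call under DESeq2 at 0.0884 and without vector replicate 1, vector replicate 3 or ELAPOR1 replicate 2, at up to 0.169. The gene that fell, E2F4, a repressive E2F of resting cells, did so by 0.1 on the log2 scale (adjusted p 0.0333, edgeR), a call lost without vector replicate 3 or without ELAPOR1 replicate 1, 2 or 3 at up to 0.134.

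Among E2F target genes of DNA replication 11 of 22 rose and 2 fell (59.1% called, against 21.4%), with a median of 0.16. All 6 subunits of the MCM helicase rose, MCM5 by 0.30 and MCM6 by 0.28, while the ribonucleotide reductase genes RRM1 and RRM2 fell by 0.24 each on the log2 scale. Of the cyclin E, cyclin A and CDK2 group 1 of 8 passed (12.5%, against 21.4%). CDK2 rose from 111 ± 4.43 to 124 ± 1.68 CPM, a call lost without vector replicate 3 at an adjusted p of 0.0573. CCNE1 and CCNE2, the cyclin E genes, had 0.23 and -0.22 on the log2 scale (adjusted p 0.552 and 0.158, edgeR). CDKN1A, which encodes the Cip/Kip inhibitor p21, was low, at 3.62 ± 0.224 CPM in vector and 2.85 ± 0.725 CPM in ELAPOR1 cells (adjusted p 0.353, edgeR). CDKN1C, the third Cip/Kip gene, had 5.28 ± 1.14 and 4.29 ± 0.833 CPM (adjusted p 0.305).

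Genes that assemble and activate cyclin kinases went both ways, with 2 of 6 higher and 2 lower (66.7%, against 21.4%). CCNH and MNAT1, partners of CDK7 in the CDK-activating kinase, fell by 0.21 and 0.17 on the log2 scale, the latter at an adjusted p of 0.0454 that did not hold under DESeq2 at 0.125, with no filter at 0.0669, with the replicate block at 0.0537, or when vector replicate 2 or 3 or ELAPOR1 replicate 2 or 3 was left out, at up to 0.207. CDC37, the HSP90 cochaperone that delivers CDK4, rose by 0.17. In the list for turnover of D cyclins and p27, 1 of 15 rose and 2 fell, which is 20% called and close to the 21.4% of all tested genes. CKS1B, the cofactor of SKP2 in p27 degradation, fell from 108 ± 4.75 to 86.6 ± 1.71 CPM (log2 fold change -0.32, adjusted p 7.13e-08, edgeR). SKP2 itself had 0.03 (adjusted p 0.706). COPS5, a subunit of the COP9 signalosome, fell by 0.15, a call lost without vector replicate 2 or ELAPOR1 replicate 2 at 0.0839 and 0.0767, and DDB1, an adaptor of CUL4 ligases, rose by 0.12, without a call by limma on FPKM (0.104 and 0.106).

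**Figure D5:**
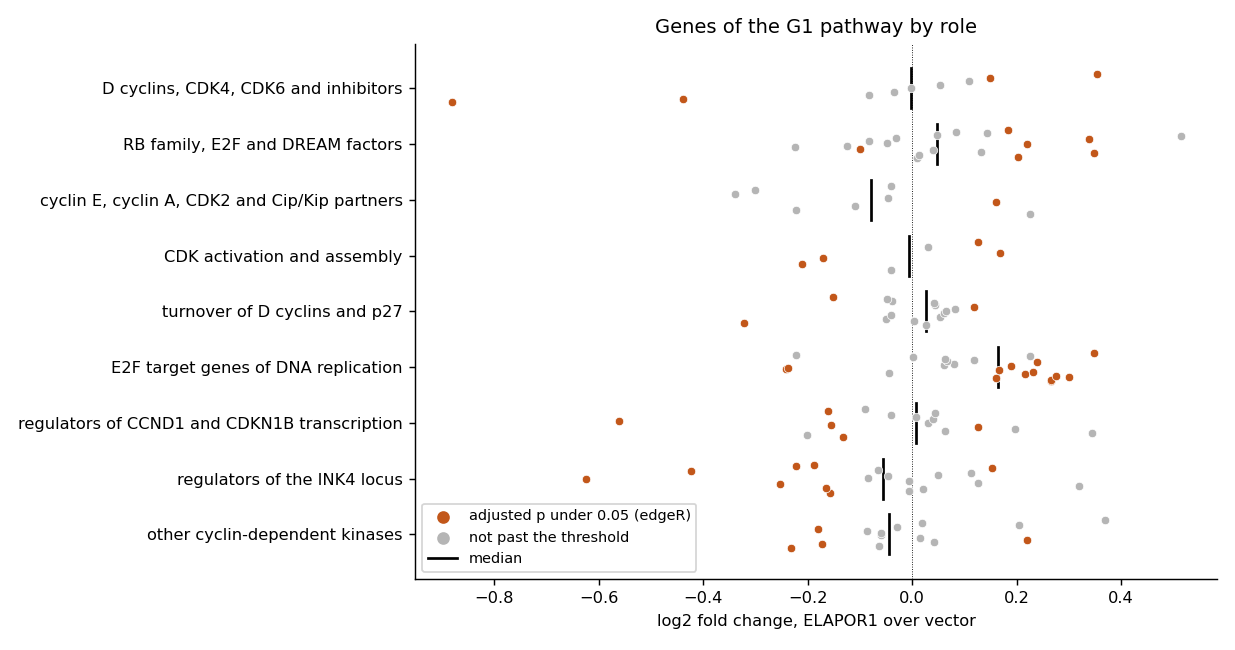
Log2 fold change of ELAPOR1 over vector (x axis) for each tested gene of the D cyclin group and the 8 lists of other G1 pathway genes (rows); orange points passed an adjusted p of 0.05 by edgeR and black bars are medians. The E2F target list has the highest median, 0.16, and CDKN2D at -0.88 is the lowest point.

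Of 15 regulators of CCND1 and CDKN1B 1 rose and 4 fell (33.3% called, against 21.4%), with a median of 0.01. ETS2, an ETS factor, fell from 127 ± 1.5 to 86.3 ± 1.42 CPM, and FOXO3, an activator of CDKN1B, and the AP-1 gene JUN by 0.16 each on the log2 scale. The FOXO3 call was lost under DESeq2 at 0.0836 and without vector replicate 2 or 3 or ELAPOR1 replicate 2 or 3, at up to 0.157, and the JUN call without ELAPOR1 replicate 2 or 3, at 0.125 and 0.0679. CTNNB1 also fell (log2 fold change -0.13, adjusted p 0.000305, edgeR), and MYC was the gene that rose (0.13, adjusted p 0.00157). Of 18 regulators of the INK4 locus 1 rose and 7 fell (44.4% called, against 21.4%), with a median of -0.06. KDM6B, the H3K27 demethylase known to act on the locus, fell from 46.4 ± 2.35 to 30.1 ± 1.56 CPM (log2 fold change -0.62, adjusted p 4.50e-11, edgeR), and ETS1, an activator of CDKN2A, from 58.6 ± 4.11 to 43.6 ± 1.04 CPM. CBX8, a Polycomb subunit that represses the locus, fell by 0.25 on the log2 scale, not called by limma on FPKM (0.0642 and 0.0654) or without vector replicate 3 or ELAPOR1 replicate 1 at 0.0762 and 0.0828. BMI1 (-0.16), EED (-0.17), DNMT3B (-0.22) and CTCF (-0.19) were also called lower, and DNMT1 (0.15) was the gene that rose. Their values under the alternatives are not given here. Of 14 other tested cyclin-dependent kinase genes 1 rose and 3 fell (28.6% called, against 21.4%), with a median of -0.04. CDK1, the mitotic kinase, fell from 334 ± 8.96 to 285 ± 9.55 CPM and CDK16 by 0.18 on the log2 scale. CDK10 rose by 0.22 at an adjusted p of 0.0321, which was above 0.05 under 9 of 16 alternatives, at up to 0.169.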

How the data were processed

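Poly(A) RNA of 6 SW620 samples was read from the deposited table of read counts per gene, which were taken as raw counts. The submitters' processing notes name HISAT2 2.0.1, HTSeq 0.6.1, cutadapt 1.9.1, DESeq2 and the build GRCh38. The deposited FPKM values equalled each count divided by exonic length and by library total within 0.01 in all 142222 cases with a count. The authors' second deposited table holds log2 fold changes, p-values and a test statistic (score, not used here). Columns named K were taken as ELAPOR1, formerly KIAA1324, and those named NC as its negative control.

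The main test was edgeR 4.0.16 (R 4.3.3; low-count filter filterByExpr, TMM scaling, quasi-likelihood), on 16003 genes. An SE is the size of the log2 fold change divided by the root of F. Pairs of libraries within a group had a mean chi-square of 2.44 to 3.63 per gene, where counting noise alone gives 1. No pair thus looked like 1 library deposited in duplicate, which does not show separate cultures. Precision follows the counts, and CDKN2D has the widest interval. Alternatives were DESeq2 1.42.0, RLE scaling, library sizes alone, no filter or a filter of 10 counts, a replicate block, limma 3.58.1 on log2(FPKM + 1) and log2(FPKM + 0.1), ELAPOR1 left out, a threshold of 0.01 and each library left out. DESeq2 with a local trend was added after seeing the data. It called 3263 genes, as did the authors' deposited table, and is not separate from that table. The tests were tried on simulated data first.

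The genes and lists were chosen with earlier results of these data known. Other genes were named by rule: per list up to 3 called genes with the largest change, genes that overlap a described gene, neighbours of called genes, and the 3 genes most correlated with CCND3. Overlapping or neighbouring genes that were not tested are not described above. These were CDK6-AS1 with 17 counts in all, DMRTA1 with 21, and CCND2-AS1, RNU6-761P, MIR6759 and RNU6-10P with 0. RB1, E2F4, the MCM genes, RRM1, RRM2, CCNE1, CCNE2, CDKN1A, CDKN1C, SKP2 and the epithelial markers were named after their values were seen. So were MYC, CTNNB1, BMI1, EED, DNMT3B, CTCF and DNMT1.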

Additional observations from a re-analysis of the deposited data

How the results depend on the processing

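The 4 calls became 3 with limma on either FPKM scale and with DESeq2 and a local trend, each time through the loss of CDK6, and were 4 under the other alternatives, the threshold of 0.01 included. CCND3, CDKN2B and CDKN2D kept direction and call in all 16 alternatives, with log2 fold changes of 0.29 to 0.41, -0.52 to -0.37 and -1.19 to -0.65 and adjusted p of at most 0.0195, 0.0226 and 0.0392. CCND1, CDKN2A and CDKN2C kept their direction without a call, and AP1M2 kept its call with a value of 1.17 by limma on log2(FPKM + 1). Without one library, CDK4 ranged from -0.0144 to 0.0135 and was 0.00128 without vector replicate 1; CDKN1B ranged from -0.0875 to 0.0236. Other uncalled genes that changed sign were LTO1 (-0.0157 to 0.0676 without one library), CDKN2B-AS1 (-0.199 to 0.0463 without one library) and GPR19 (-0.00179 with library sizes alone, -0.00844 with limma on log2(FPKM + 0.1), -0.257 to 0.243 without one library). Over all genes 3427 passed, 2133 with limma on log2(FPKM + 1) and 2098 with log2(FPKM + 0.1); the cause was not tested. With library sizes alone 1351 genes were higher and 2183 lower, against 1607 and 1820, and with limma on log2(FPKM + 1) 727 and 1406. Leaving out 1 library gave 2723 to 3187 genes, 4 of the 9 genes in every case and 33 to 41 pathway genes, against 43, of which 33 to 39 were among the 43. With the replicate block 3361 genes passed, 4 of the 9 and 42 pathway genes, all among the 43. Deviations of same-numbered libraries correlated at -0.0104, -0.0196 and -0.0197, so the numbers were not taken as a pairing, and for 0 of 6 libraries was the same-numbered one the closest. Of 27 other genes named by rule and called, 15 were called under every alternative run and 12 lost the call under at least 1, with 0 changes of direction. Depth limits CCND2, with at most 6 counts per library, and CDKN2D, with 50 to 143.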
